A study of Sus scrofa with 10 samples.

Results

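The 100 mRNAs described here are those of pig blood whose level stood highest at 2 years of age (Y2) relative to every other age sampled. They were chosen from 12354 mRNAs by a score, the log2 of the mean level at Y2 plus 1 minus the highest such log2 mean at the other 4 ages, after each library was divided by a median-of-ratios factor and 10 mRNAs with a mean FPKM of 5000 or more were set aside. FPKM corrects the fragments of a transcript for its length and for the mapped reads of its library, and levels below are these values divided by the library's factor (scaled FPKM), so that they can be compared between genes of different length. Of the 100 members, 58 had a gene symbol and 42 were known by identifier alone.

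Whole peripheral blood came from 10 healthy female Qingyu pigs, with 2 pigs each just after birth (D0), at 7 days (D7), at 28 days (D28), at 180 days (D180) and at 2 years (Y2). Each pig gave 1 library of RNA depleted of ribosomal RNA, the labels name no treatment, and no pig was sampled at more than 1 age. With 2 libraries per age, a two-sided exact permutation test cannot go below 0.333, so tests used a fit over all mRNAs that pools the spread of the 5 ages. The factors that brought the libraries to one scale ran from 0.437 at D0 to 3.03 at D180, and were close to 1.6 in both Y2 libraries (1.60 and 1.59).

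Blood carries red cells, platelets and several kinds of white cell, and its RNA mixes them all. Eosinophils are granulocytes that mature under interleukin 5, store peroxidase and other toxic proteins in granules, and make lipid mediators from arachidonic acid. Neutrophils, the more common granulocytes, carry proteases that cut the extracellular matrix. In bulk blood, more cells of a type and more RNA per cell cannot be told apart.

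Blood markers were present in every library: the mean scaled FPKM of the T cell gene CD3E was 13.2 at D0 and 22.4 at Y2, and that of the granulocyte receptor CSF3R was 27.1 and 33.6. The Y2 libraries also differed from D180 in their mix. Summed over the listed red cell genes, the level was 37588 to 47578 at D180 and 148814 to 178608 at Y2. D0, D7 and D28 lay above Y2, with 1059181 to 1106766 at D0 and 338816 to 353039 at D28, so D180 was the lowest age. Summed over the platelet genes it was 157 to 178 at D180 and 94.2 to 96.8 at Y2, the lowest age. The part of these shifts in the levels of the 100 mRNAs was not tested.

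Members named as eosinophil genes stood high at Y2. ALOX15 (ENSSSCG00000017923, chromosome 12, 52287174 to 52295873 on Sscrofa11.1), a lipoxygenase that oxygenates arachidonic acid, measured 27.7 and 27.6 scaled FPKM in the Y2 pigs. It measured 4.48 and 4.64 at D0, 1.43 and 1.61 at D7, 1.18 and 1.60 at D28, and 0.821 and 0.824 at D180. The Y2 mean thus lay 6.07-fold above that at D0, the next highest age, and the pigs of each age lay close together.

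IL5RA (ENSSSCG00000011528, chromosome 13, 59651184 to 59692211) encodes the interleukin 5 binding chain of its receptor. Its scaled FPKM was 4.50 and 4.18 at Y2 and 1.03 and 0.693 at D180, and the 6 earlier libraries lay between 0.0451 and 0.512. EPX (ENSSSCG00000017630, chromosome 12, 34486139 to 34498879), the peroxidase of eosinophil granules, stayed low throughout, with 0.657 and 0.780 at Y2 against at most 0.177 in any earlier library. No Y2 value of either gene overlapped an earlier one, a gap that the rule itself favoured.

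LTC4S, which joins glutathione to leukotriene A4 to make leukotriene C4, was likewise low. It measured 0.665 and 0.869 scaled FPKM at Y2, at most 0.187 elsewhere, and was listed at 0 in both D7 libraries. CEBPE, a transcription factor of granulocyte maturation, measured 4.49 and 4.21 at Y2 and 1.15 and 0.988 at D180, and its highest earlier library was a D0 pig at 1.26.

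**Figure D1:**
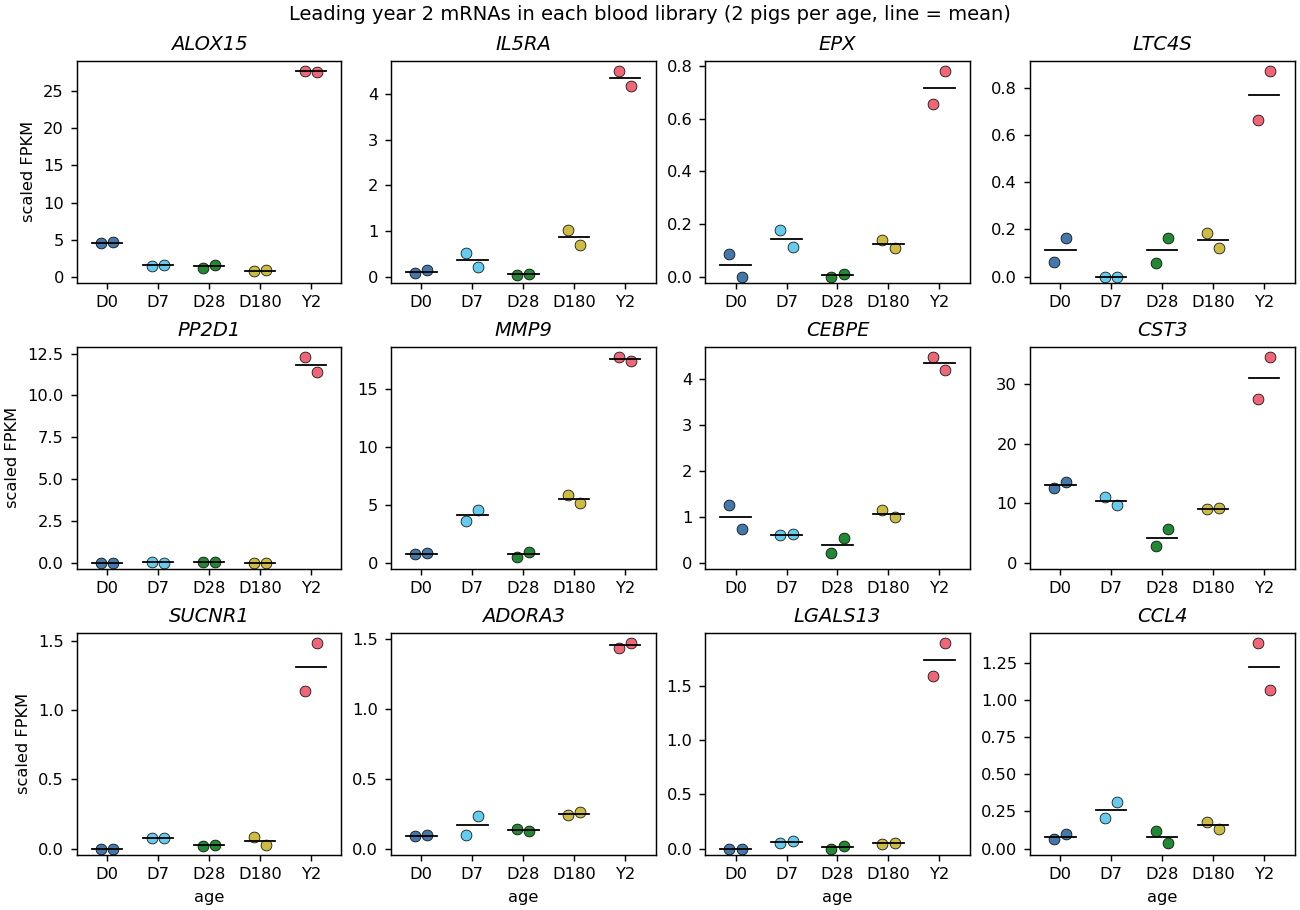
Scaled FPKM (vertical axes, linear, each with its own range) by age for 12 of the members. Each point is 1 pig and each line the mean of 2 pigs. ALOX15 reaches 27.7 and 27.6 at Y2 against at most 4.64 before, and PP2D1 12.3 and 11.4 against at most 0.0357.

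PP2D1 (ENSSSCG00000027327, chromosome 13, 6939990 to 6958513), named for its similarity to protein phosphatase 2C, was close to 0 before Y2. It measured 12.3 and 11.4 scaled FPKM at Y2, was listed at 0 in 5 of the 8 earlier libraries and did not exceed 0.0357 in the others. LGALS13, a galectin, followed a like course, with 1.59 and 1.89 at Y2 and at most 0.0711 before. CLDN10 and STMND1, a tight junction protein and a stathmin domain protein, lay at or below 0.118 in all earlier libraries and between 0.376 and 0.546 at Y2. As deposited, the genes of this paragraph exceeded the 0.5 FPKM needed to keep an mRNA at Y2 alone. Given their low earlier values, a higher level at Y2 was thus fixed by that limit.

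Proteases, protease inhibitors and other secreted proteins are described next, placed side by side for their known roles alone. MMP9 (ENSSSCG00000007436, chromosome 17, 48179690 to 48186782), a gelatinase kept in neutrophil granules, measured 17.8 and 17.5 scaled FPKM at Y2. Its earlier values were 5.84 and 5.18 at D180, 3.62 and 4.57 at D7, and under 1 at D0 and D28. CST3, the cysteine protease inhibitor cystatin C, was among the most abundant named members, with 27.5 and 34.7 at Y2 and 12.5 and 13.5 at D0. FN1, the matrix protein fibronectin, measured 8.97 and 8.89 at Y2, 4.81 and 4.49 at D180 and 0.326 and 0.353 at D28. In all 3 genes both Y2 pigs lay above every earlier one, a gap that the rule favoured. The next age was D180 for MMP9 and FN1 and D0 for CST3.

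The chemokine CCL4 was scarce, with 1.38 and 1.06 scaled FPKM at Y2 and at most 0.312 before. IL15, a cytokine that sustains natural killer and memory T cells, stood at the edge of the group (rank 98), with 1.34 and 1.93 at Y2 and up to 1.12 at D7. SCG5, a secretory chaperone of a prohormone convertase, measured 3.64 and 3.46 at Y2 against at most 1.94 in other libraries.

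Of the members with a symbol, 5 were G protein-coupled receptors that sense small molecules or proteases. SUCNR1, the succinate receptor, measured 1.13 and 1.48 scaled FPKM at Y2 and at most 0.0802 before, and ADORA3, an adenosine receptor, 1.44 and 1.47 against at most 0.261. P2RY14, the receptor for UDP-sugars, and GPR34, a lysophosphatidylserine receptor, stood 2.00-fold and 1.70-fold over their next age. F2R, the thrombin receptor, measured 5.11 and 5.76 at Y2 and 3.68 and 3.54 at D28, its next age. The first 2 receptors were close to 0 before Y2, whereas the other 3 were measured at every age. Like PP2D1, SUCNR1 exceeded the 0.5 FPKM needed to keep an mRNA at Y2 alone. SUCNR1 and P2RY14 both lie on chromosome 13, with 663049 bases between them.

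Enzymes that modify proteins and sugars were also among the 100. PADI2, which turns arginine into citrulline in proteins, measured 4.48 and 4.59 scaled FPKM at Y2 and 1.82 and 1.69 at D180. TGM3, a transglutaminase that cross-links proteins, measured 13.6 and 13.8 at Y2, 9.62 and 9.23 at D7 and only 0.159 and 0.145 at D28. B4GALT6, which makes lactosylceramide, measured 4.23 and 3.97 at Y2, 2.38 and 2.06 at D7 and 0.748 and 1.04 at D180. GALNT3, which starts O-linked sugar chains, measured 1.55 and 1.88 at Y2 and 0.899 and 0.740 at D180. These enzymes thus differed in which earlier age came closest to Y2.

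Some other members are enzymes of sugar and lipid metabolism. HK2, a hexokinase, measured 1.25 and 1.27 scaled FPKM at Y2 and at most 0.688 before, and FBP1, fructose bisphosphatase, 0.976 and 1.07 against at most 0.426. ELOVL6, which lengthens fatty acids, measured 1.49 and 1.61 against at most 0.746. For all 3 the next age was D180.

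Transporters and proteins of the cytoskeleton and of vesicles were found as well. SLCO2B1, an organic anion transporter, measured 1.02 and 1.14 scaled FPKM at Y2 and at most 0.195 before. SCIN, which cuts actin filaments, measured 1.21 and 1.32 at Y2 and at most 0.308 before. VPS13A, a lipid transfer protein, and STXBP5, which regulates vesicle fusion, lay 1.92-fold and 1.66-fold above their D180 means. AHNAK, a large scaffold protein, was the single named member whose Y2 pigs overlapped an earlier library, with 18.2 and 10.5 at Y2, 11.8 and 3.52 at D180, and 6.48 and 0.0508 at D28.

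Regulators of signalling and transcription were also among the members. AHR, a transcription factor that binds aromatic ligands, measured 8.77 and 9.48 scaled FPKM at Y2 and 6.23 and 6.13 at D180. SCIMP, a membrane adaptor of antigen-presenting cells, measured 7.59 and 7.82 at Y2, 4.58 and 4.42 at D180 and 0.165 and 0.308 at D0. RHEX, named for a role in red cell expansion, measured 26.9 and 25.4 at Y2 and 20.6 and 15.7 at D180. OAZ3, an inhibitor of ornithine decarboxylase, measured 2.99 and 2.40 at Y2, 1.05 and 1.02 at D28, and 0.0772 and 0.169 at D180, its lowest age.

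**Figure D2:**
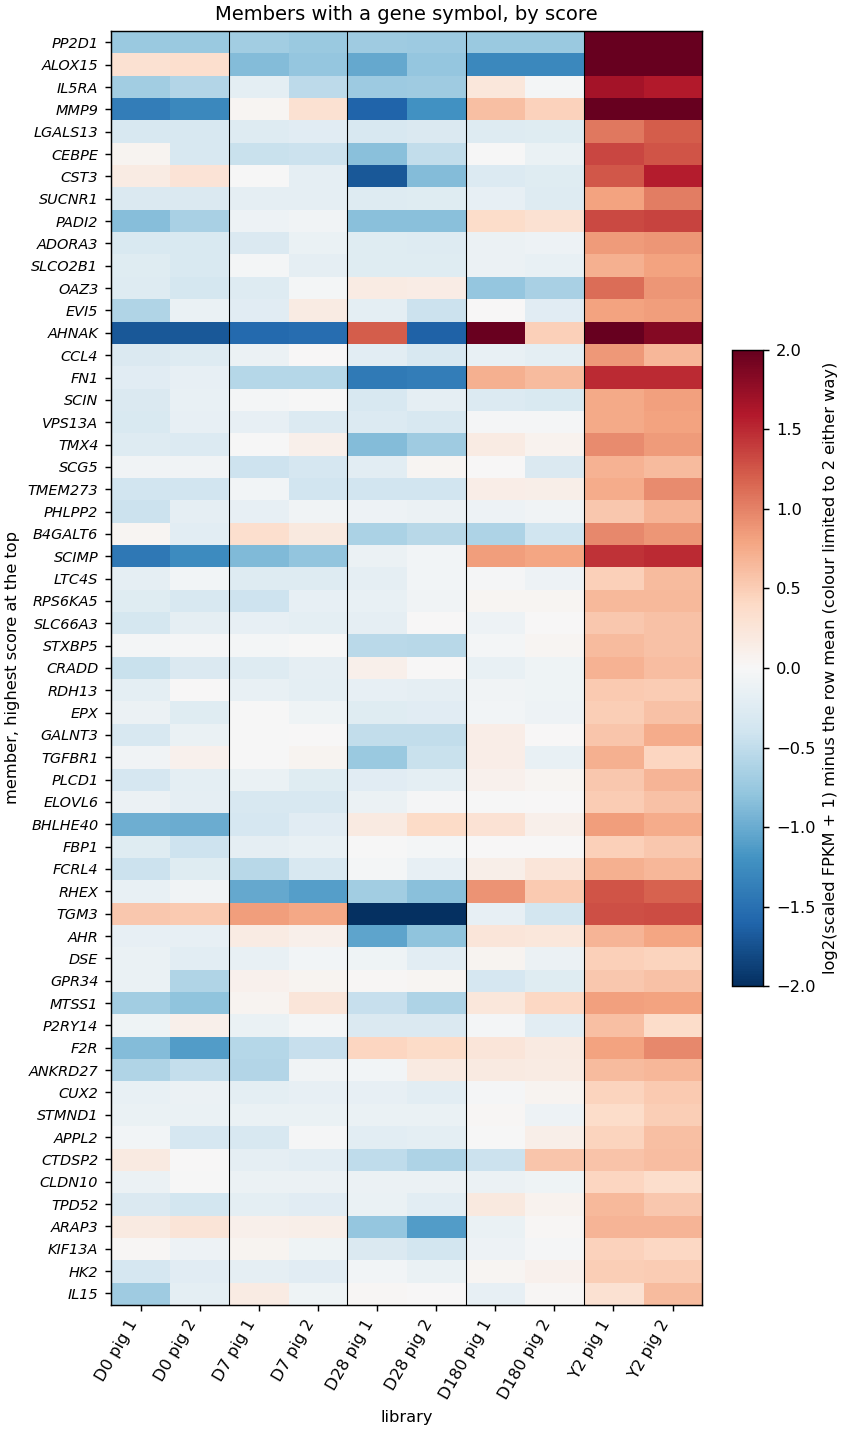
Level of 57 of the 58 members with a symbol (rows, highest score at the top) in each of the 10 libraries (columns), as log2(scaled FPKM + 1) minus the mean of the row, with colours limited to 2 either way. The 2 right-hand columns are the Y2 pigs. The D28 columns of MMP9, CST3, FN1 and TGM3 are among the lowest in their rows.

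Among the 42 members without a symbol were 2 whose score rested on 1 pig. The highest score of all, 4.28, belonged to ENSSSCG00000039924, which was listed at 0 in 9 libraries and at 36.8 scaled FPKM in the second Y2 pig. ENSSSCG00000019977 measured 0.0800 in the first Y2 pig and 5.49 in the second, and 0.312 in its highest earlier library. ENSSSCG00000039381, by contrast, measured 25.9 and 27.3 at Y2 and between 1.37 and 4.36 elsewhere. The most abundant member, ENSSSCG00000020462, measured 493 and 288 at Y2 and between 111 and 237 before, so that the lower Y2 pig lay nearer to the earlier libraries than to the other Y2 pig. These 4 were singled out after their values were seen.

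The scores of the 100 ran from 4.28 to 0.43 with a median of 0.61, and 19 were at least 1. Levels at Y2 were modest: the median of the members' Y2 means was 3.83 scaled FPKM (1.89 over all mRNAs), 62 members lay under 5 and 9 under 1. The members with a symbol stood a median of 1.96-fold over their next age, which was D180 for 50 of all 100, D7 for 24, D0 for 14 and D28 for 12. Over all mRNAs, the highest age before Y2 was D180 in 26.2%, D7 in 18.2%, D0 in 30.3% and D28 in 25.2%. These differences in share were not tested, and the rule used these means. In 95 of the 100, both Y2 pigs lay above all 8 earlier libraries. The same held for 7.50% of all mRNAs, but the rule itself chose members for that gap and nothing can be read from it. The 2 Y2 pigs differed by a median of 1.09-fold over the members measured in both, and by 1.09-fold over all mRNAs. At the edge of the group, IL15 (rank 98) and 2 members without a symbol (ranks 99 and 100) scored 0.43, as did NEU1, LPCAT2 and FOXP3 just outside it.

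The age at which these mRNAs stood highest depended on the scaling. On FPKM as deposited, 70 of the 100 were highest at Y2 and 30 at D180, where 90.4% of all mRNAs were highest. Among those 30 were TMX4, a thioredoxin-related membrane protein (mean deposited FPKM 24.3 at D180 and 23.7 at Y2), AHR (18.2 and 14.5) and RHEX (53.3 and 41.6). ALOX15, IL5RA, EPX, LTC4S, PP2D1, MMP9, CEBPE, CST3, SUCNR1, ADORA3 and CCL4 were highest at Y2 either way. With the 10 most abundant mRNAs removed and the rest of each library brought to one total, all 100 were highest at Y2. From D180 to Y2 the median of all mRNAs moved by 0.01 in log2 under the scaling used here, -0.66 as deposited and -0.13 with the 10 removed.

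**Figure D3:**
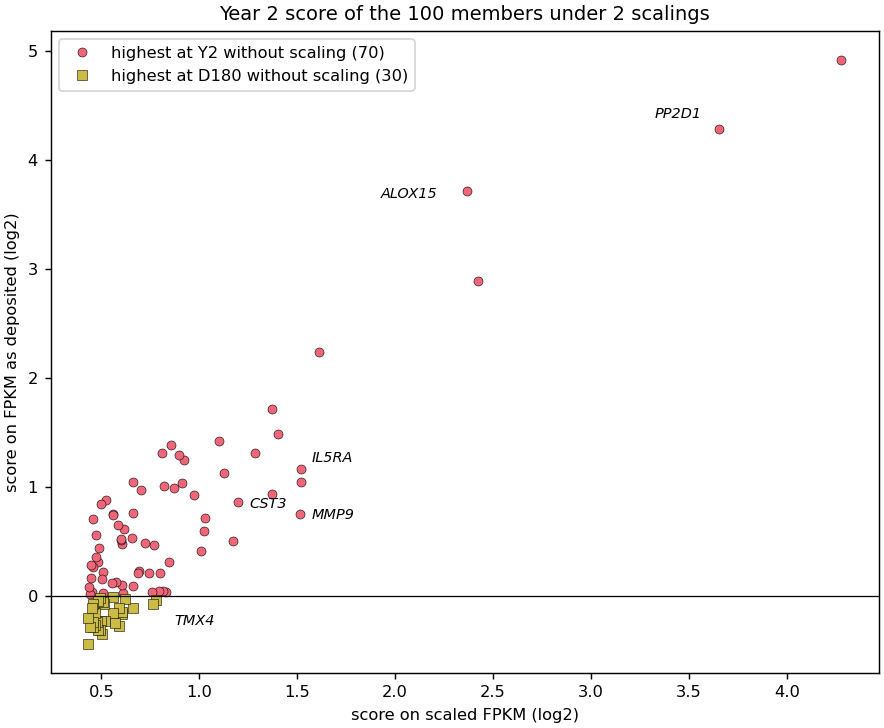
Score of each of the 100 members on scaled FPKM (horizontal axis, log2) and on FPKM as deposited (vertical axis, log2). The 70 circles above the line at 0 were highest at Y2 without scaling, and the 30 squares below it were highest at D180. PP2D1 and ALOX15 lie far above the line and TMX4 just under it.

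Differences between neighbouring ages before Y2 were tested mRNA by mRNA. The rule took the highest of the 4 earlier means, so these values are not independent of the choice of members. The counts below, and the calls and adjusted p-values of single members that follow, describe them and support nothing further. From D0 to D7, 21 members rose and 6 fell, where 17.8% of all mRNAs rose and 20.1% fell (limma, Benjamini-Hochberg adjusted p of at most 0.05 over all mRNAs). From D7 to D28, 17 rose and 21 fell, against 18.4% and 22.8%. From D28 to D180, 34 rose and 7 fell, against 14.4% and 18.0%. The members' median log2 differences at the 3 steps were 0.10, -0.06 and 0.14, beside -0.01, 0.02 and -0.02 over all mRNAs. Fewer members fell than all mRNAs at the first step and at the last, and more rose at the last. These differences in share were not tested.

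Scaling moved these counts for members and for all mRNAs, though not by equal amounts. As deposited, 19 members rose and 5 fell from D0 to D7, where 18.5% of all mRNAs rose and 8.91% fell. From D7 to D28, 41 rose and 8 fell, against 65.3% and 5.90%, and from D28 to D180, 89 rose and 1 fell, against 90.6% and 3.32%. With the 10 most abundant mRNAs removed, 38 rose and 4 fell at the first step (38.2% and 6.25% of all mRNAs), 31 and 13 at the second (48.0% and 11.7%) and 67 and 2 at the third (63.3% and 6.90%). From D7 to D28 the members' share of rises lay below that of all mRNAs under both of these scalings, and their larger share of rises to D180 under median-of-ratios scaling was not seen as deposited. The median of all mRNAs was then 0.06, 0.46 and 1.07 in log2 at the 3 steps as deposited, and 0.20, 0.27 and 0.40 with the 10 removed. On scaled FPKM without the first D180 pig, 22 members rose from D28 to D180, beside 8.90% of all mRNAs.

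The 100 did not share one course before Y2. No step was called for 44 of them, among them PP2D1, LGALS13, SUCNR1, ADORA3, EPX, LTC4S and CCL4. The genes just named were low before Y2, where log2(scaled FPKM + 1) compresses differences. Their missing calls therefore do not show a flat course. Another 11 rose from D0 to D7, fell to D28 and rose again to D180. The share of all mRNAs with each course was not computed, so these counts cannot be set against a background. MMP9 was one of the 11, with log2 differences of 1.51, -1.57 and 1.93 (SE 0.14, adjusted p 7.8e-05, 5.2e-05 and 1.5e-05). PADI2 (0.66, -0.75 and 1.17) and TGM3 (0.27, -3.18 and 2.11) moved the same way, but the first step of TGM3 was not called when any 1 D0 or D7 pig was left out. TMX4, AHR and MTSS1 also had this course. The first step of TMX4 and AHR was lost in the same way when single pigs were left out, the fall of TMX4 was not called as deposited, and the fall of MTSS1 (-0.69) became 0.01 as deposited.

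FN1 fell from D0 to D7 and again to D28 before it rose to D180 by 2.08 in log2 (SE 0.07, adjusted p 1.0e-07), although its first fall was not called under either other scaling. CST3 fell by 1.19 from D7 to D28 and rose by 1.02 to D180, a rise that was not called when either D180 pig was left out, and its fall was not called as deposited. ARAP3, GALNT3, KIF13A, STXBP5 and TGFBR1 also fell and then rose at these steps. As deposited, the fall of STXBP5 (-0.52) and of TGFBR1 (-0.61) turned to 0.15 and 0.06, and those of GALNT3 and KIF13A were not called. The rises of KIF13A and TGFBR1 were lost when the first D28 or the first D180 pig was left out. SCIMP rose at each step, by 0.51, 0.75 and 0.89 (SE 0.08), and was the single member with a symbol to do so. On scaled FPKM, D28 was thus the lowest age of several members.

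IL5RA rose from D28 to D180 by 0.82 (SE 0.12, adjusted p 0.0014), and CEBPE by 0.59 (SE 0.14, adjusted p 0.014), the latter call being lost when the first D28 pig or either D180 pig was left out. ALOX15 went the other way: it fell by 1.14 from D0 to D7 (SE 0.09, adjusted p 3.6e-05) and by 0.39 from D28 to D180 (adjusted p 0.012), but the second difference was 0.54 as deposited, -0.04 and not called with the 10 most abundant mRNAs removed, and not called when either D180 pig was left out. On scaled FPKM, IL5RA and ALOX15 thus moved in opposite directions from D28 to D180. OAZ3 also fell from D28 to D180, by 0.86 (SE 0.11, adjusted p 0.00041), and RHEX fell by 0.95 from D0 to D7 and rose by 1.48 from D28 to D180.

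**Figure D4:**
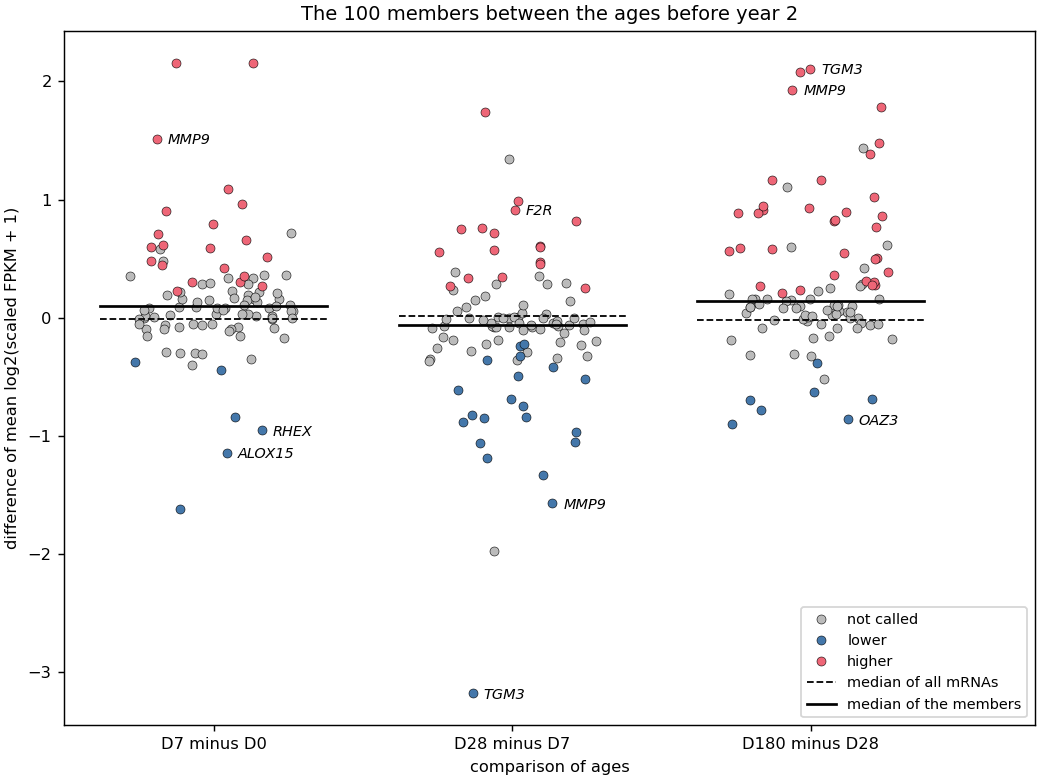
Difference of mean log2(scaled FPKM + 1) between neighbouring ages (vertical axis) for the 100 members at the 3 steps before Y2, coloured by the limma call. Solid lines mark the members' medians and dashed lines the medians of all mRNAs. From D28 to D180 there are 34 points called higher and 7 called lower.

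Genes of blood cell types and pathways from 19 lists, of which 4 held members, were compared between D180 and Y2. Members are left out of these counts, since the rule used that contrast for them. Over all mRNAs, 7.47% were higher at Y2 and 3.95% lower. Across the lists, 54 of 294 genes were higher and 54 lower, which became 25 and 228 as deposited and 56 and 95 with the 10 most abundant mRNAs removed.

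The list for eosinophils, basophils and mast cells had 7 genes in the table, of which ALOX15, IL5RA and EPX were members. Of the other 4, 1 was higher at Y2: GATA2, a transcription factor of these lineages, measured 0.603 and 0.598 scaled FPKM at D180 and 2.01 and 1.88 at Y2 (log2 difference 0.88, SE 0.08, adjusted p 0.00029). CCR3, the eotaxin receptor that marks eosinophils and basophils, measured 14.5 and 14.3 at D180 and 14.0 and 14.6 at Y2, a difference of -0.01 (95% interval -0.16 to 0.15, adjusted p 0.97). MS4A2, a chain of the IgE receptor of basophils and mast cells, measured 11.4 and 10.9 at D180 and 11.8 and 11.2 at Y2 (0.04, 95% interval -0.13 to 0.22, adjusted p 0.80). PTGDR2, a prostaglandin D2 receptor, had a difference of 0.24 (adjusted p 0.12). Summed over these 4 genes the level was 26.6 to 27.6 at D180 and 29.0 to 29.2 at Y2. The list's median difference was 0.14, beside 0.01 over all mRNAs. On FPKM as deposited, GATA2 was still higher (0.56) and the other 3 were lower.

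For neutrophils, the list of MMP9, 2 of 10 other genes were higher and none of them lower (1 lower at an unadjusted p of at most 0.05, limma). LTF, the granule protein lactoferrin, measured 0.0314 and 0.0538 scaled FPKM at D180 and 0.582 and 0.624 at Y2 (log2 difference 0.62, adjusted p 0.00088). S100A8, a calcium-binding protein of neutrophils, had a difference of 0.59 (adjusted p 0.024), which was -0.18 as deposited and was not called when any 1 D180 or Y2 pig was left out. CSF3R measured 35.9 and 33.4 at D180 and 33.8 and 33.3 at Y2 and was not called. The list's median difference was 0.18. Summed over the 10 genes the level was 77.5 to 79.9 at D180, 83.1 to 83.9 at Y2 and 242 to 254 at D0.

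Of the 20 chemokines and chemokine receptors listed beside CCL4, 7 were higher at Y2 and 5 lower, with a median difference of 0.13. CCL5 had the largest positive difference, with 28.4 and 21.8 scaled FPKM at D180 and 56.7 and 49.3 at Y2 (1.06, adjusted p 0.00079), though as deposited it was 0.20 and not called. XCL1 followed (0.83, adjusted p 0.0077), and was not called when the second D180 or the first Y2 pig was left out. CCR7, the receptor of naive T cells (-0.88, adjusted p 0.00019), and PPBP, a platelet chemokine (-0.81, adjusted p 0.00025), had the largest negative ones. CCL4 thus stood in a list whose other genes moved both ways.

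For haemostasis and extracellular matrix, the list of FN1 and MMP9, 5 of 11 other genes were lower and none higher (none at an unadjusted p of at most 0.05 either, limma), with a median difference of -0.23. TIMP3, an inhibitor of matrix proteases, measured 4.52 and 3.93 scaled FPKM at D180 and 1.14 and 1.31 at Y2 (-1.23, adjusted p 5.9e-05).

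The lists that held no member show what else differed between D180 and Y2. Of 24 red cell genes 21 were higher, with a median difference of 1.19, and of 26 genes of natural killer and cytotoxic cells 10 were higher and 2 lower (median 0.41). Neither list was highest at Y2: the summed red cell level was higher at D0, D7 and D28. The summed cytotoxic level was 414 to 449 at D28 and 206 to 221 at Y2. Of 16 platelet genes 12 were lower (median -0.74) and of 34 interferon-stimulated genes 25 were lower (median -0.51). As deposited, where the median of all mRNAs was -0.65, the median turned to -0.15 for cytotoxic cells, -0.17 for neutrophils, -0.47 for chemokines and -0.56 for eosinophils, basophils and mast cells, while that of the red cell genes was 0.61. No B cell gene and no gene of antigen presentation was higher (3 of 16 and 1 of 10 at an unadjusted p of at most 0.05, limma), and the part of any of these differences in the members' levels was not tested.

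**Figure D5:**
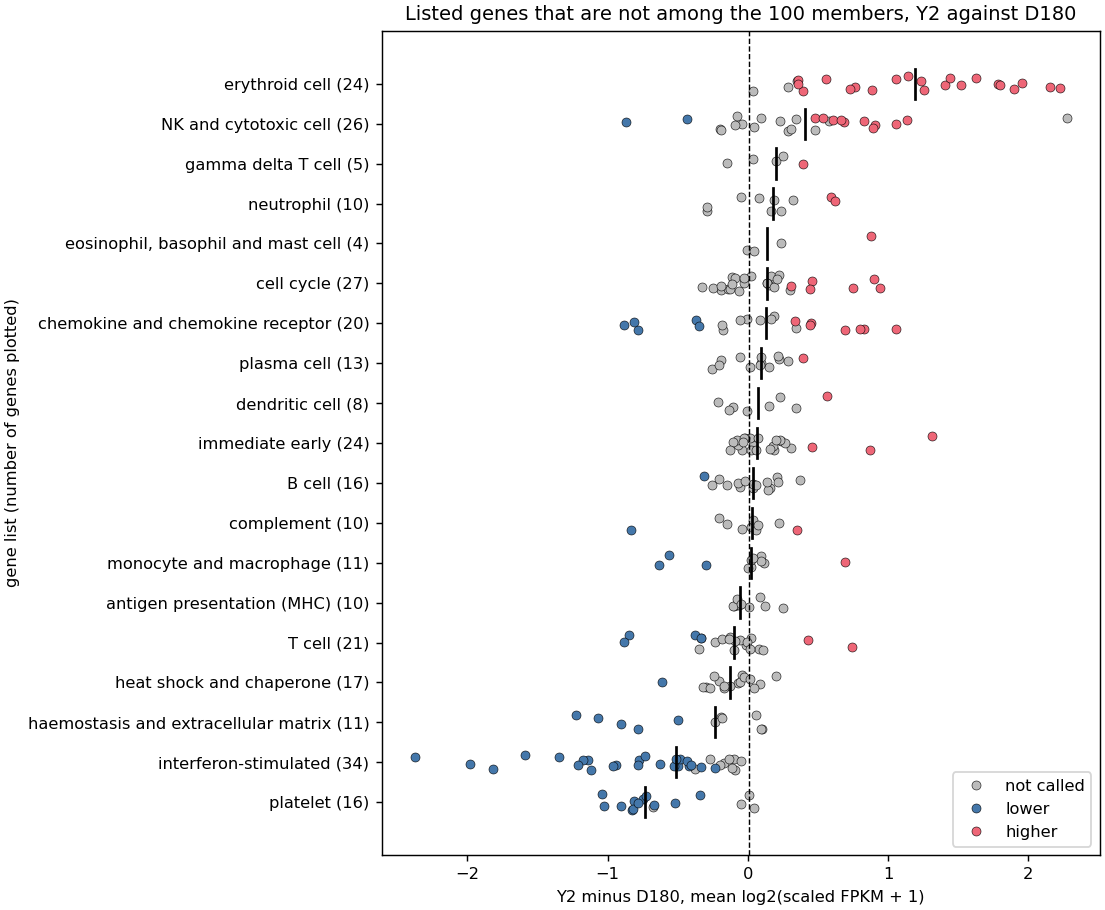
Difference of mean log2(scaled FPKM + 1) between Y2 and D180 (horizontal axis) for listed genes that are not among the 100, by list (rows, with the number of genes). Colours give the limma call, short lines the list medians and the dashed line the median of all mRNAs. In the row for eosinophils, basophils and mast cells 1 of 4 genes is called higher, and in the red cell row 21 of 24.

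The lncRNA table, which the rule did not use but which comes from the same libraries, was searched around the 55 members with a RefSeq position. Within 100 kb of 28 of them lay 53 lncRNAs, of which 2 were higher at Y2 than at D180 and none lower (2 lower at an unadjusted p of at most 0.05, limma). Over all lncRNAs 0.807% were higher and 0.353% lower. The mean was highest at Y2 in 24 of the 53, or 45.3%, beside 20.9% of all lncRNAs. Some of the 53 were listed at 0 in every earlier library. They passed the limit of 0.1 FPKM for keeping a lncRNA only through Y2, which fixed that they were highest there. Others overlap each other, and this difference in share was not tested. Both called lncRNAs lay inside the span of IL5RA.

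TCONS_00048282 (chromosome 13, 59688531 to 59690184, minus strand) measured 0.0995 and 0.122 scaled FPKM at D180 and 0.650 and 0.512 at Y2 (log2 difference 0.51, SE 0.08, adjusted p 0.035). TCONS_00048284 (59689616 to 59690184, minus strand) measured 0.166 and 0.112 at D180 and 0.637 and 0.720 at Y2 (0.56, SE 0.06, adjusted p 0.011). They overlap each other, so they are one locus and not separate evidence, and reads of IL5RA itself could have been counted to them. Another transcript of the same span, TCONS_00048283, measured 0.00532 and 0.399 at Y2 and was not called. Both calls were lost with a pseudocount of 0.1 (adjusted p 0.17 and 0.062) and with the 2 ages alone in the fit (0.14 and 0.11), and that of TCONS_00048282 also with factors of the lncRNAs themselves (0.058) and when any 1 D28 or D180 pig was left out.

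Near PP2D1 there were 5 lncRNAs. On one side of the gene, 19525 to 27237 bases away, 4 on the minus strand had low values that were highest at Y2. TCONS_00046031 was listed at 0 in all 8 earlier libraries and measured 0.200 and 0.324 scaled FPKM at Y2 (log2 difference from D180 0.33, adjusted p 0.058). TCONS_00046029 was also listed at 0 before Y2 and measured 0.268 and 0.101. TCONS_00046037 was listed at 0 in all but the first Y2 pig, where it measured 0.770, and TCONS_00046036 measured 0.503 and 1.13 at Y2 and at most 0.249 before. TCONS_00046029, TCONS_00046031 and TCONS_00046037 passed the limit of 0.1 FPKM for keeping a lncRNA only through Y2. That limit thus fixed that they were highest at Y2. TCONS_00046036 and TCONS_00046037 overlap each other. None of the 4 was called, and TCONS_00038292 on the other side of the gene measured 1.22 and 1.26 at Y2 and 1.71 and 1.61 at D180.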

How the data were processed

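The deposited tables held FPKM values that the authors made from blood RNA of 10 pigs. According to the study's methods and the submitters' processing notes (CASAVA 1.8.2, HISAT2 2.0.4, StringTie 1.3.3, Cufflinks 2.2.1), reads of strand-specific libraries were aligned to Sscrofa11.1, and mRNAs over 0.5 FPKM and lncRNAs over 0.1 FPKM in at least 1 library were kept. Depth behind single values is unknown, since the tables hold no counts. All columns were used, and groups came from the sample titles.

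To bring libraries to one scale, a median-of-ratios factor was computed from the 11527 mRNAs measured in every library, and each column was divided by it. This assumes that most mRNAs do not change. lncRNAs were divided by the same factors. Members and lists were chosen with earlier results of these data known. Symbols came from a table of identifiers and symbols (9735 of 12354 rows, 78.8%), and positions from RefSeq on Sscrofa11.1, matched by symbol.

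The test of each difference was limma's (version 3.58.1, run under R 4.3.3), fitted to log2(scaled FPKM + 1), so that fold changes of low mRNAs are understated. All 5 ages were in the fit, with a mean-variance trend, two-sided, Benjamini-Hochberg adjusted over each table, and called at an adjusted p of at most 0.05. Python 3.11.15 with numpy 2.4.6, pandas 2.3.3, scipy 1.17.1 and matplotlib 3.10.9 did the rest. Genes named were the 30 members with a symbol and the highest scores, members on a list or in a shared family, those at the edge of the group, and from the lists the largest called differences and defining markers. Other members were named after their values were seen, and 1 member and 1 listed gene are not reported here by name. On simulated mRNAs (Y2 against D180, 12354 rows) the fit recovered 85 of 100 changed by a log2 of 1 and 99 of 100 changed by 2, with 15 false calls. On 5946 simulated lncRNAs it recovered 73 and 96, with 13 false calls. The simulation added shifts up or down to normal noise around each row's mean, so low rows could fall below 0, unlike real values. The called differences of lncRNAs near members (0.51 and 0.56) were smaller than these shifts, so the rates do not give the power there. Alternatives were other scalings, a pseudocount of 0.1, a filter of 1 FPKM in 2 libraries, other fits and limits, and each library left out in turn.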

Additional observations from a re-analysis of the deposited data

How the results depend on the processing

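Membership depended on the scaling and on how the score was built. Of the 100 mRNAs, 45 were still among the highest 100 as deposited, 60 with the 10 most abundant mRNAs removed, 58 with a pseudocount of 0.1 and 54 with the score taken against the mean of the other ages. With 1 library left out, 82 to 96 remained, and 62 remained whichever library was left out. Scaling also moved the tests. As deposited, 41 members rose and 8 fell from D7 to D28, 89 rose and 1 fell from D28 to D180, 25 listed genes were higher and 228 lower at Y2, and 7 nearby lncRNAs were higher and 19 lower. With the 10 removed, 38 members rose from D0 to D7, 31 rose and 13 fell from D7 to D28, 67 rose and 2 fell from D28 to D180, 95 listed genes were lower, and 7 nearby lncRNAs were higher and 1 lower. With a log2 difference of at least 1.5 asked as well, 3 members rose and 1 fell from D0 to D7, 1 rose and 2 fell from D7 to D28, 4 rose and 0 fell from D28 to D180, 8 listed genes were higher and 4 lower, and 0 nearby lncRNAs were higher.

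Different pigs were sampled at each age, so equal pig numbers do not pair animals. No pair of ages had a correlation of same-numbered deviations above 0.1 (-0.093 to 0.061). Whether a batch or litter was shared by number was not tested. With the replicate block, 19, 18 and 33 members rose at the 3 steps, 51 listed genes were higher and 49 lower, and 1 nearby lncRNA was higher (TCONS_00048284, adjusted p 0.031, against 0.079 for TCONS_00048282). The number of nearby lncRNAs higher at Y2 was 0 with a pseudocount of 0.1, 0 with the 2 ages alone in the fit, 1 with the filter and 1 with lncRNA factors. It was 1 to 6 with 1 library left out (1 without either D28 or either D180 pig, 6 without the first Y2 pig and 5 without the second), and 0 to 1 were lower (1 without the second D180 pig). With 1 library left out, 15 to 20 members rose and 6 to 7 fell from D0 to D7, 13 to 18 rose and 17 to 21 fell from D7 to D28, 22 to 35 rose and 6 to 9 fell from D28 to D180 (22 without the first D180 pig), and 37 to 56 listed genes were higher and 36 to 56 lower. A pig left alone at its age was then assumed to vary like the others. In all, 42 of the values recomputed under an alternative moved by more than 1.5 times, or to or from 0, and the other 158 did not. Counts of 0 that stayed at 0 are among the 158. The cause of these shifts was not tested. The number of pigs, 2 per age, limits every mean, and low FPKM values carry an unknown number of reads.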
